A study of Mus musculus with 24 samples.

Results

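Il2, Il3, Csf2 and Il21 encode 4 secreted growth factors that T cells make when their antigen receptor is engaged. They were followed here through 24 dual-colour arrays of in vitro differentiated mouse T helper cells. The members were chosen by name, as 4 of the 20028 genes that the arrays measured, and each was read by 1 probe. The Csf2 probe was printed as 10 spots on each array, of which 7 to 10 remained after flagged spots were left out, and the other 3 genes had 1 spot each.

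Each array held Cy3-labelled RNA of 1 T helper sample and Cy5-labelled RNA of naive CD4+CD62L+CD25-CD44lo T cells as the reference, all from female C57BL/6 mice, with the dyes never swapped. The Th1 groups were DMSO for 6 hr, DMSO for 24 hr, 50 nM JQ1 for 6 hr, 500 nM JQ1 for 6 hr, 500 nM JQ1 for 24 hr, 1 µM flavopiridol for 6 hr and 10 µM flavopiridol for 6 hr. The Th2 groups were DMSO, JQ1 at 50 nM or at 500 nM for 6 hr, and flavopiridol at 1 µM or at 10 µM for 6 hr. Every group had 1 array of unstimulated and 1 array of reactivated cells. JQ1 displaces BET bromodomain proteins from chromatin, flavopiridol inhibits the elongation kinase P-TEFb, and DMSO is the solvent of both. The Th2 DMSO samples carried conflicting labels, 24 hr in the title and 6 hr in the source name, so their time is unknown wherever they serve as the control. The stimulus that reactivated the cells on these arrays and the number of mice pooled are not given in the sources used here, and the age of the mice is not labelled. No condition had a second array, so a difference between 2 arrays has no replicate check and the tests rest on changes that recurred over pairs, cell contexts or treatments.

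The 4 cytokines act through families of shared receptor chains. The product of Il2 drives T cell division and signals through Il2ra, Il2rb and the common gamma chain Il2rg to the kinases Jak1 and Jak3 and to STAT5. The product of Il21, a helper signal for B cells, uses Il21r with the same common gamma chain and acts mainly on STAT3. Il3 and Csf2 encode interleukin 3 and GM-CSF, growth factors of myeloid cells that share the common beta chain Csf2rb and the kinase Jak2. In T cells all these genes are textbook targets of calcium signalling through NFAT and of the AP-1 and NF-kB factors, which act at promoters and at more distant enhancers.

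The genes lie in neighbouring couples, Il2 with Il21 on chromosome 3 and Csf2 with Il3 on chromosome 11. In the RefSeq table of assembly GRCm38.p6, 2 long noncoding genes of predicted models, Gm36000 and Gm12532, stood between Il2 and Il21, and 0 genes stood between Csf2 and Il3. The 250 bases before each annotated start are shown because these 4 genes are set side by side in every comparison below. They come from RefSeq (GRCm38.p6), run 5′ to 3′ on the strand of the gene, which was the minus strand for all 4, and carry in capitals every match to 4 motifs searched on both strands.
Il2, chr3:37125955-37126204: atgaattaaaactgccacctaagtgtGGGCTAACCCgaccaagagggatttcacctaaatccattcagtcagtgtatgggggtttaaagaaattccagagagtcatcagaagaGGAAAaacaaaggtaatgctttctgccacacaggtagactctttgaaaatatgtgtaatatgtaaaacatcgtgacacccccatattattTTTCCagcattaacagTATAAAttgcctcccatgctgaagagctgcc
Il21, chr3:37232637-37232886: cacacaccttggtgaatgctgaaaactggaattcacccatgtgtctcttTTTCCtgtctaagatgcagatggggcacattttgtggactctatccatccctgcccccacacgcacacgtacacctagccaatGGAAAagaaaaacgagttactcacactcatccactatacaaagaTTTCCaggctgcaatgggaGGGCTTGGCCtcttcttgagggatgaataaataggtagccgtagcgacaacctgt
Il3, chr11:54267280-54267529: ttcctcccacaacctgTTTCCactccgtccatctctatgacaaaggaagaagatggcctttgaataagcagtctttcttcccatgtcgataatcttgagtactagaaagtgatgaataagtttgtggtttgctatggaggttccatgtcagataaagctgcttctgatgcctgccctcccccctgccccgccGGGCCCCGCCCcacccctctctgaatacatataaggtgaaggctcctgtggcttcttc
Csf2, chr11:54249900-54250149: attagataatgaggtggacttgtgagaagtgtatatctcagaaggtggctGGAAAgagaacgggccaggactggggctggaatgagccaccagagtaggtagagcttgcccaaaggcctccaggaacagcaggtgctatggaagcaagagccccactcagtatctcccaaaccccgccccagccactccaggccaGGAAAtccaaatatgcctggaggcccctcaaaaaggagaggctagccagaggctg
The motifs were GGAAA for NFAT, TGANTCA for AP-1, GGGNNNNNCC for NF-kB and TATAAA for the TATA box. GGAAA, on either strand, occurred 2 times before Il2, 3 times before Il21, 1 time before Il3 and 2 times before Csf2. This core is short, and 55.6% of 32851 RefSeq promoters of the same length held it. TGANTCA was absent from all 4 windows and present in 6.75% of promoters. The NF-kB pattern stood before Il2, Il21 and Il3, with overlapping matches on both strands before Il2 and Il3, and 45.8% of promoters held it. TATAAA stood only before Il2, 31 to 26 bases from the start, and 12.4% of promoters held it. A match is a string of letters in this window and says nothing of binding in these cells.

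Across the arrays, 35.4% to 41.5% of probes were well above background in Cy3 on the 8 flavopiridol arrays and 43.8% to 52% on the others. Normalized Cy5, which should hold the same kind of RNA throughout, differed between 2 arrays with an SD of 0.19 (log2, median over 276 pairs), and this serves as the tolerance for a difference between 2 single arrays. In the lineage check, Tbx21 and Ifng were above background on 14 of 14 Th1 arrays and on 6 and 4 of 10 Th2 arrays, while Il4 was above background on 10 of 10 Th2 and 5 of 14 Th1 arrays. The Th1 markers Cxcr3 and Il18rap were above background on 14 of 14 Th1 arrays and on 6 and 4 of 10 Th2 arrays. Il12rb2, another Th1 marker, was above background on all arrays of both lineages, with median log2 ratios of 1.09 in Th1 and -0.1 in Th2 cells. Other Th2 markers were less separate: Gata3 was above background on all 24 arrays, with a median log2 ratio of -0.58 in Th1 and 1.6 in Th2 cells, and Il1rl1 was above background on 12 of 14 Th1 arrays, with a higher median ratio in Th1 (3.59) than in Th2 cells (2.23). The T cell genes Cd3e, Cd4 and Lck were above background on all 24 arrays. Among markers of other cells, the mast cell or basophil genes Cpa3, Mcpt8 and Ms4a2 were above background on 0 arrays and Fcer1a on 1 Th2 array. Klra8, of NK cells, was above background on 9 of 14 Th1 and 0 of 10 Th2 arrays, Ncr1 on 1 Th1 array and Klrb1c on 0. Cd8a, of CD8 T cells, was above background on 13 of 14 Th1 and 0 of 10 Th2 arrays, and Cd8b1 on 12 and 9. Of the myeloid genes, Itgam and Csf1r were above background on 14 of 14 Th1 and 10 of 10 Th2 arrays, Cd14 on 2 Th1 and 1 Th2 arrays and Lyz2 on 0, whereas Ms4a1 and Cd79a, of B cells, were above background on 10 of 10 Th2 arrays and on 10 and 4 of 14 Th1 arrays. In bulk RNA, fewer producing cells and less RNA per cell cannot be told apart.

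**Figure D1:**
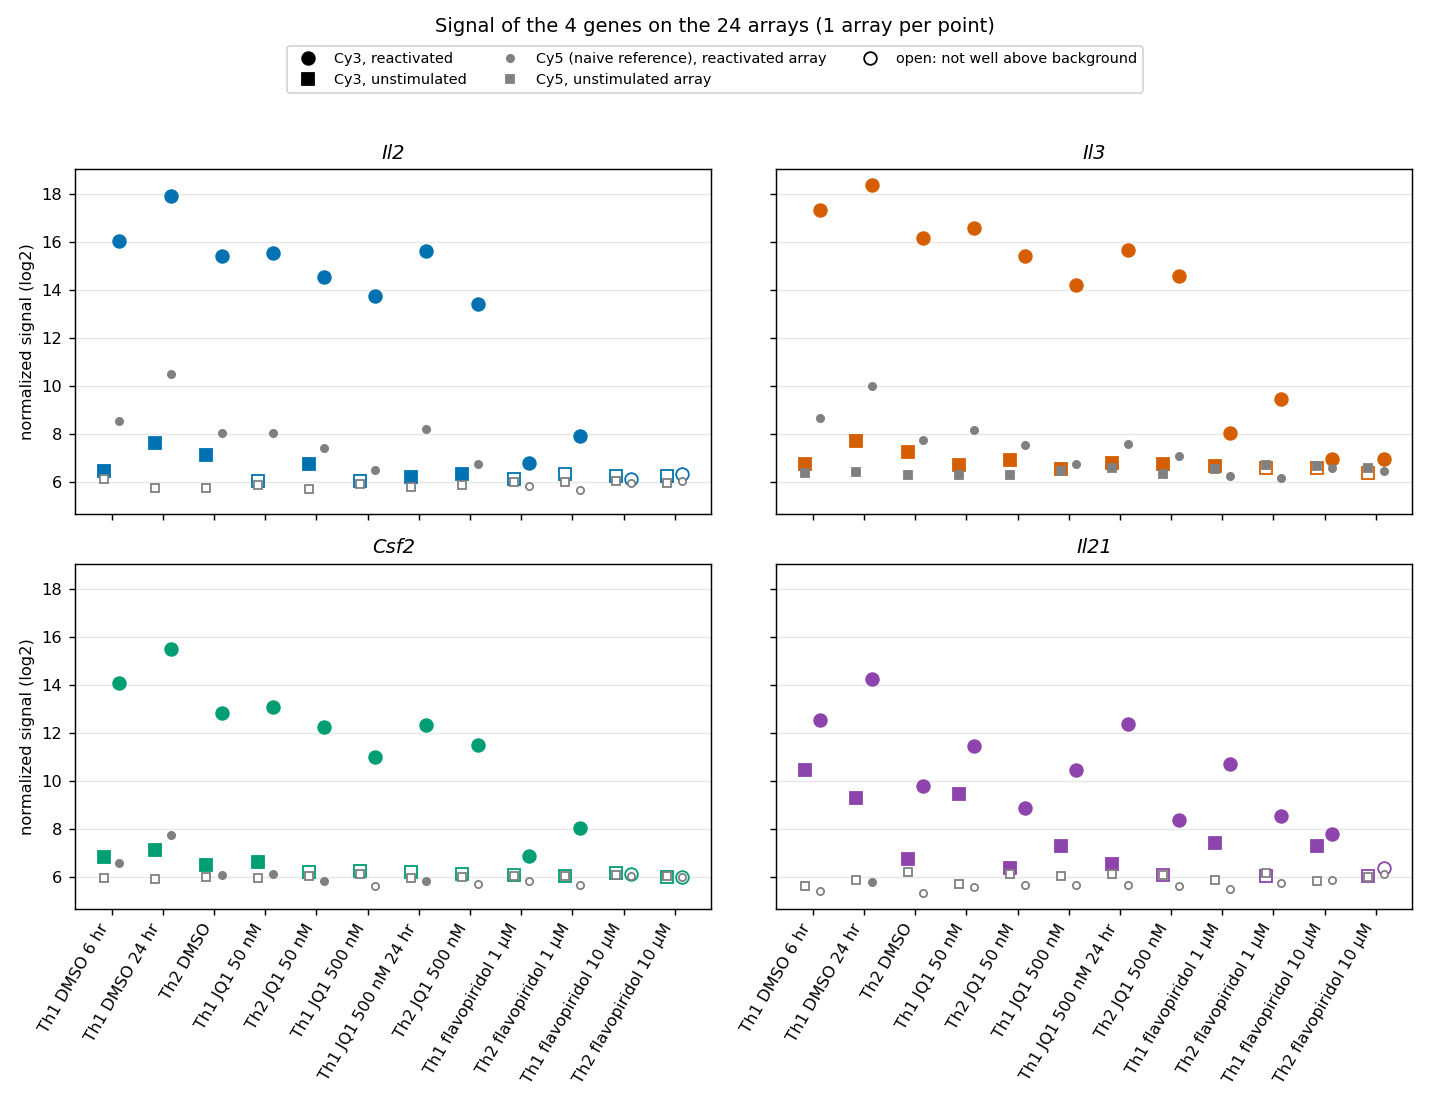
Normalized Cy3 signal (large coloured symbols) and Cy5 signal (small grey symbols) of each gene, in log2, on the 24 arrays, with circles for reactivated and squares for unstimulated samples and open symbols for signals not well above background. In Cy3 the 8 reactivated arrays without flavopiridol stand above every other array for Il2, Il3 and Csf2, and the grey circles of Il2 and Il3 rise on the same arrays.

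Il2 was close to dark before reactivation and among the brightest changes after it. Its net Cy3 signal (spot median minus local background, in scanner units) rose from 23 to 56617 in Th1 cells with DMSO at 6 hr. It rose from 98 to 200972 in Th1 cells at 24 hr and from 65 to 41494 in Th2 cells. The 3 reactivated DMSO arrays therefore lay far above the 3 unstimulated ones, with no overlap. With 50 nM JQ1 the reactivated signal was 40367 in Th1 and 20643 in Th2 cells, against 7 and 45 before. With 500 nM JQ1 it was 7031 in Th1 cells at 6 hr, 32252 in Th1 cells at 24 hr and 8070 in Th2 cells, against 7, 10.5 and 19.5 before. These 5 reactivated JQ1 arrays all stood below their DMSO array, which for Th2 cells is the one of unclear time. With flavopiridol Il2 stayed near background: 1 µM left reactivated signals of 35 in Th1 and 91 in Th2 cells, and 10 µM left 9 and 10.5, neither well above background. The 4 unstimulated flavopiridol signals lay between 8 and 11 and were not well above background.

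Il3 was also brightest in reactivated Th1 cells with DMSO. Its net Cy3 signal rose from 38.5 to 132531 in Th1 cells with DMSO at 6 hr, from 100 to 277936 at 24 hr and from 75 to 69080 in Th2 cells. With 50 nM JQ1 the reactivated signals were 80712 in Th1 and 37164 in Th2 cells. With 500 nM JQ1 they were 9669 in Th1 cells at 6 hr, 33954 in Th1 cells at 24 hr and 17660 in Th2 cells, while the 5 unstimulated JQ1 arrays read 20 to 55.5. All 8 reactivated arrays without flavopiridol were thus above all 8 unstimulated ones. Under 1 µM flavopiridol the reactivated signal was 96.5 in Th1 and 234 in Th2 cells, and under 10 µM it was 24 and 21. Unlike Il2, Il3 remained above background on these 4 arrays, and its unstimulated flavopiridol signals ran from 1 to 18.

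Csf2, the gene with repeated spots, gave net Cy3 signals of 44.9 before and 15385 after reactivation in Th1 cells with DMSO at 6 hr. At 24 hr they were 54.9 and 43377, and in Th2 cells 24.2 and 7051. With 50 nM JQ1 the reactivated signals were 7322 in Th1 and 4115 in Th2 cells, and with 500 nM they were 1055 in Th1 cells at 6 hr, 3300 in Th1 cells at 24 hr and 2076 in Th2 cells. Of the 5 unstimulated JQ1 arrays only Th1 cells with 50 nM, at 31.8, were well above background. Reactivated cells read 38.7 in Th1 and 102 in Th2 with 1 µM flavopiridol and 6.81 and 0.389 with 10 µM, the last pair not well above background. Within 1 array its spots varied with an SD of 0.0577 to 0.164 in Cy3 (log2), a spread between spots that says nothing of the spread between samples.

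Il21 had its brightest unstimulated signals in Th1 cells, before any reactivation. Its unstimulated net Cy3 signal with DMSO was 1187 in Th1 cells at 6 hr, 394 in Th1 cells at 24 hr and 38 in Th2 cells. After reactivation it was 5070, 17977 and 700 in the same order. The unstimulated Th1 array at 6 hr was thus brighter than the reactivated Th2 array, so the states overlapped across lineages although each pair rose. With 50 nM JQ1 Il21 went from 550 to 2242 in Th1 and from 22 to 322 in Th2 cells. With 500 nM it went from 68.5 to 725 in Th1 cells at 6 hr, from 20 to 3350 in Th1 cells at 24 hr and from 6.5, not well above background, to 201 in Th2 cells. With 1 µM flavopiridol the reactivated signals were 698 in Th1 and 138 in Th2 cells, and with 10 µM 81.5 and 9, the Th2 value being at background. In unstimulated Th1 cells flavopiridol left 63.5 at 1 µM and 53 at 10 µM, against 1187 with DMSO.

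Ordered by normalized Cy3, the reactivated Th1 DMSO array at 24 hr was the highest for each gene and the reactivated Th1 DMSO array at 6 hr the second. For Il2 the next 3 places, Th1 with 500 nM JQ1 at 24 hr (15.62 in log2), Th1 with 50 nM JQ1 (15.54) and Th2 DMSO (15.41), were within the tolerance of their neighbours. For Csf2, Th1 with 500 nM JQ1 at 24 hr (12.33) and Th2 with 50 nM JQ1 (12.25) were within the tolerance. For Il21 the reactivated Th1 array with DMSO at 6 hr (12.53) and with 500 nM JQ1 at 24 hr (12.36) were within the tolerance. For Il2 and Il3 the eighth and ninth places were separated by 5.54 and 4.76, the step from the last reactivated JQ1 array to the first flavopiridol array, and for Csf2 that step was 2.94. In all, 13 of 23 neighbouring places for Il2, 11 for Il3, 12 for Csf2 and 10 for Il21 differed by less than the tolerance, many of them among dim arrays.

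The Cy5 channel held naive T cell RNA on every array, yet its signal for Il2, Il3 and Csf2 moved with Cy3. Cy5 for Il2 was not well above background on 16 arrays and was well above it on the 8 reactivated arrays without flavopiridol, where its net signal ran from 87.5 in Th1 cells with 500 nM JQ1 to 2232 in Th1 cells with DMSO at 24 hr. Those Cy5 signals were 0.92% to 1.4% of the Cy3 signal of the same spot. For Il3 all 24 arrays had a Cy5 signal well above background, with 28 to 61 net on the unstimulated arrays without flavopiridol and 114 to 1593 on the reactivated ones, the latter 0.42% to 1.2% of Cy3. For Csf2 the Cy5 share on the 8 arrays was 0.68% to 1.2%, with Cy5 well above background on 6 of them. Il21 did not show this rise: with a Cy3 signal of 5070 in Th1 cells at 6 hr its Cy5 signal was 8, and with 17977 at 24 hr it was 28, both 0.16% of Cy3. Whether a single pool of naive RNA served all arrays is not stated in the labels. The source of the Cy5 signal was not tested.

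**Figure D2:**
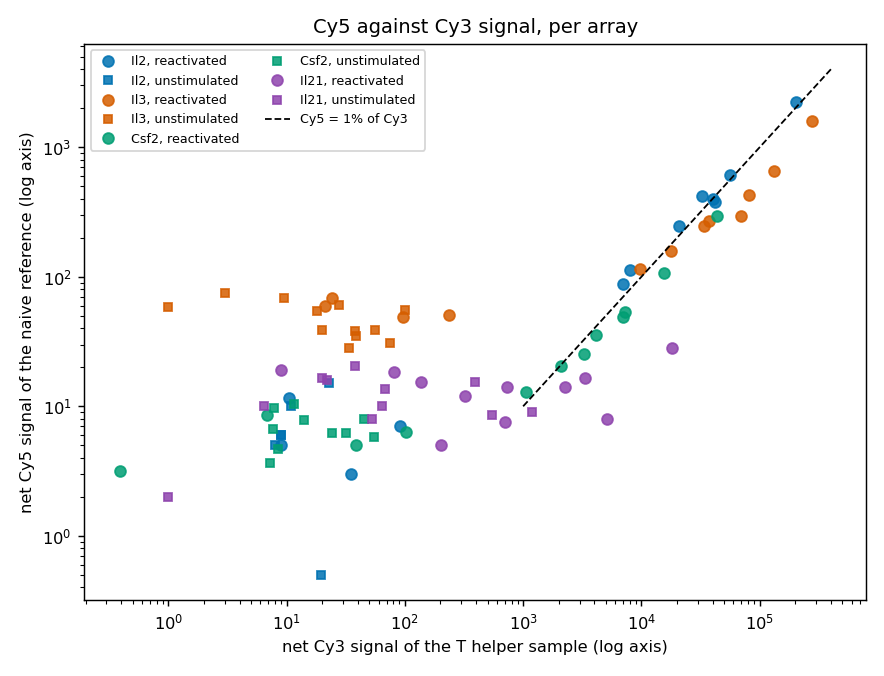
Net Cy5 signal of the naive reference against net Cy3 signal of the T helper sample for the 4 genes, both in scanner units on log axes, with 1 point per array, circles for reactivated and squares for unstimulated samples (86 points; 10 with a net signal not above 0 are not drawn). The dashed line marks a Cy5 signal of 1% of Cy3: on the 8 reactivated arrays without flavopiridol Il2, Il3 and Csf2 lie near it, at 0.42% to 1.4%, and Il21 lies below it at its 3 highest Cy3 signals.

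The Cy3/Cy5 ratio of Il2 was nearly the same on arrays whose Cy3 differed widely. Its log2 ratio on the 8 reactivated arrays without flavopiridol ran from 6.71 to 7.5, a range of 0.79, while normalized Cy3 ran from 13.44 to 17.92, a range of 4.48. For Il3 the ranges were 1.18 in the ratio and 4.16 in Cy3, and for Csf2 2.41 and 4.51. For Il21, whose Cy5 stayed low, they were 5.69 and 5.87. The main tests were run on the ratio, and the same fits on Cy3 alone are given beside them.

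Reactivation raised all 4 genes. In the 3 DMSO pairs, fitted with limma and the pair as a block, the log2 ratio rose by 7.61 ± 0.23 (SE) for Il3, 6.48 ± 0.13 for Csf2, 6.24 ± 0.3 for Il2 and 3.76 ± 0.47 for Il21, with Benjamini-Hochberg adjusted p of 8.7e-05, 2.61e-05, 0.000148 and 0.0012. All 4 were called at an adjusted p under 0.05, where 51% of the 12526 genes tested were called and 21.9% were called higher (51.1% in Cy3 alone). By size of rise in the ratio, Il3, Csf2 and Il2 held places 1, 2 and 3 of those 12526 genes, and Il21 held place 48, whereas in Cy3 alone Il3 held place 1, Il2 place 2, Csf2 place 6 and Il21 place 91. In Cy3 alone the rises were 10.06 ± 0.37 for Il3, 9.4 ± 0.38 for Il2, 7.33 ± 0.37 for Csf2 and 3.37 ± 0.54 for Il21, with limma adjusted p of 0.000656, 0.000656, 0.000794 and 0.00543. In single pairs the Cy3 rise of Il2 was 780-fold in Th1 cells at 6 hr, 1261-fold in Th1 cells at 24 hr and 315-fold in Th2 cells. For Il3 it was 1533-fold, 1636-fold and 483-fold, for Csf2 152-fold, 331-fold and 82-fold, and for Il21 4.2-fold, 31.4-fold and 8.32-fold, in the same order. These folds are of normalized Cy3 with the offset of 50 in it, so they understate changes from a dim start. The Il21 call in the ratio was lost in a limma fit without the pair block (adjusted p = 0.0549).

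**Figure D3:**
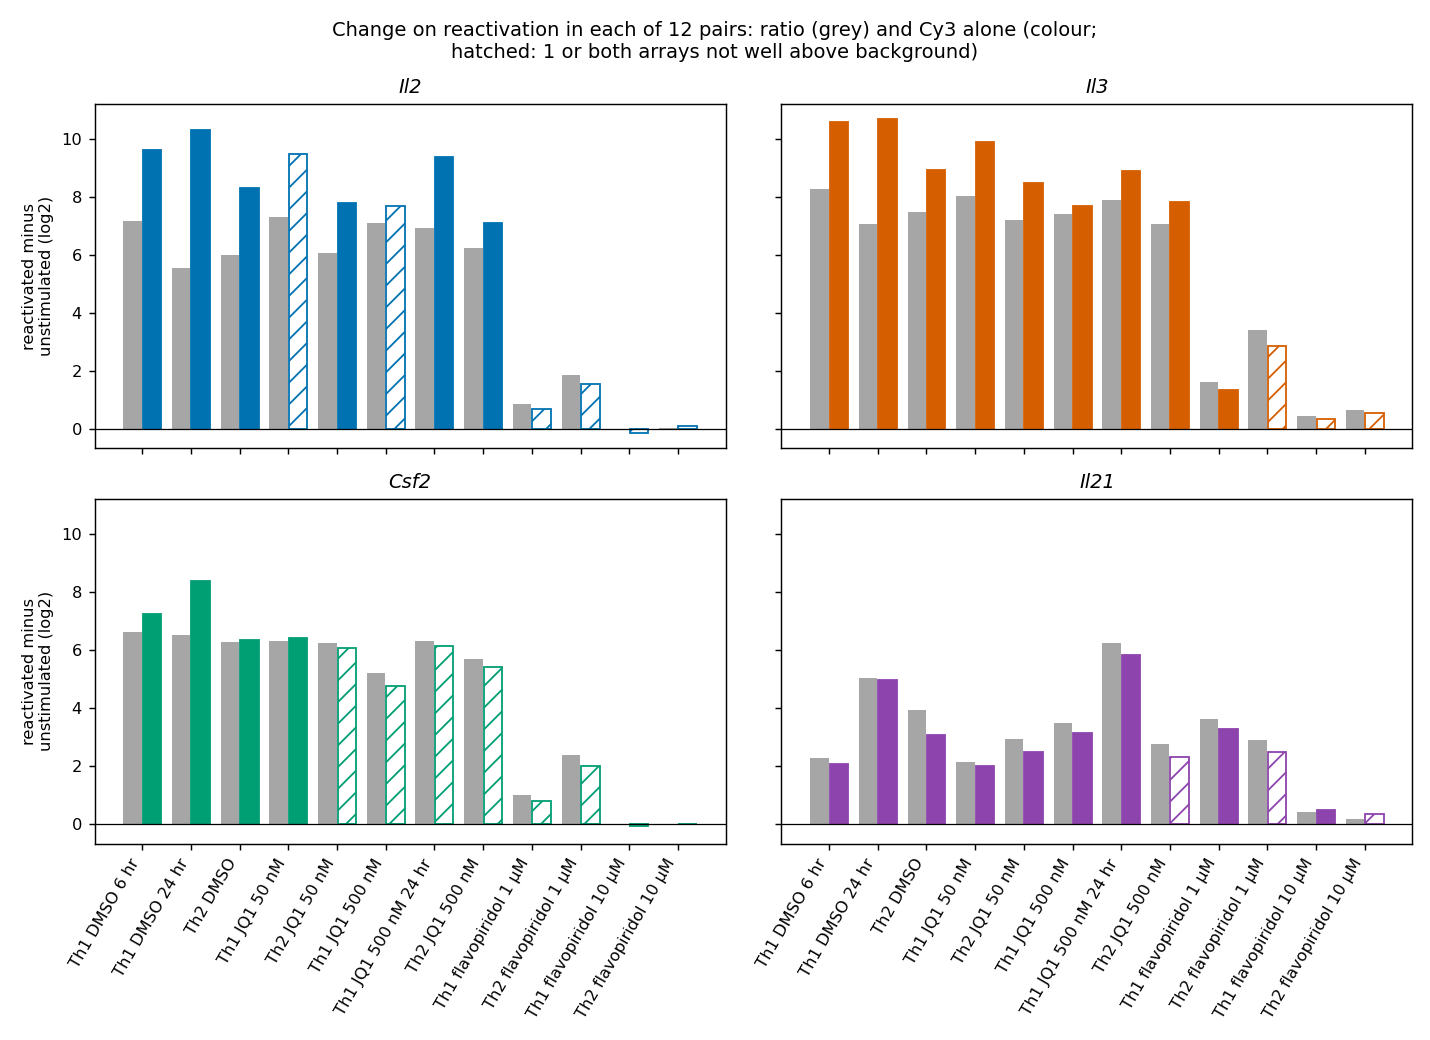
Difference between reactivated and unstimulated cells for each gene in the 12 pairs of arrays, in log2, with grey bars for the ratio and coloured bars for Cy3 alone (hatched where 1 or both arrays were not well above background). Without flavopiridol the coloured bars of Il2 and Il3 exceed the grey ones in every pair, and with 10 µM flavopiridol no bar of any gene exceeds 0.67.

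The lists around the members are counted beside all genes tested, of which 51% were called and 21.9% were called higher on reactivation. Of the 8 receptor chains, 3 rose and 1 fell on reactivation in the ratio: Il2rg by 0.6 ± 0.13, Il2ra by 0.54 ± 0.16 and Csf2ra by 0.51 ± 0.15, while Il3ra changed by -0.5 ± 0.16 and 4 did not pass. The median over the list was 0.29, beside -0.05 over all genes tested. Of 6 JAK and STAT genes 2 rose, Jak2, the kinase below the common beta chain, by 2.64 ± 0.24 and Stat5a by 2.54 ± 0.14, and 4 fell, among them Jak1 (-1.05 ± 0.14). Among 13 targets and feedback genes of STAT5 and STAT3, 5 rose and 1 fell, and those with the largest rise were Myc at 3.3 ± 0.35, the cytokine Lif at 2.78 ± 0.23, the survival gene Bcl2l1 at 2.18 ± 0.2 and the feedback inhibitor Cish at 1.64 ± 0.3. Of 6 other ligands of the gamma and beta chain families 4 could be tested and 2 rose, Il4 by 3.92 ± 0.3 and Il13 by 3.81 ± 0.16. Of 23 factors of the activation pathway 11 rose and 5 fell, led by Egr2 at 4.72 ± 0.4, Fosl1, an AP-1 subunit, at 3.61 ± 0.18, Egr1 at 3.23 ± 0.6 and Fosb at 2.87 ± 0.29. Of 9 known repressors or feedback genes of Il2, 0 rose and 2 fell, with Tob1 at -0.78 ± 0.15 and Prdm1 at -0.51 ± 0.15. Of 8 genes beside the members on the chromosome 4 could be tested, of which Spata5 rose by 1.51 ± 0.18 and P4ha2 changed by -1.57 ± 0.23. The summed net Cy3 of Cd3e, Cd4 and Lck was 27170 to 35707 in reactivated against 47820 to 49103 in unstimulated Th1 cells with DMSO, and 25015 against 47725 in Th2 cells. For the myeloid genes it was 10232 to 11078 against 7074 to 9350 and 10740 against 13190. For the B cell genes it was 236 to 264 against 178 to 305 and 1352 against 1558. The part of these markers in the rises was not tested.

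Flavopiridol lowered all 4 genes in reactivated cells. At 10 µM against DMSO, in the fit of 12 arrays with cell context as a block, the log2 ratio changed by -8.13 ± 0.41 for Il3, -7.18 ± 0.36 for Il2, -7.1 ± 0.42 for Csf2 and -4.74 ± 0.64 for Il21, with limma adjusted p of 4.93e-05, 4.86e-05, 6.31e-05 and 0.000938. All 4 were called, where 50.9% of 12425 genes were called and 31.6% were called lower (51.6% called in Cy3 alone). The median change of all genes tested was -0.16. In Cy3 alone the changes were -9.8 ± 0.53 for Il3, -9.48 ± 0.38 for Il2, -7.41 ± 0.48 for Csf2 and -4.1 ± 0.6 for Il21 (limma adjusted p of 7.62e-05, 4.25e-05, 9.88e-05 and 0.00153). On both arrays of reactivated cells with 10 µM Il2 and Csf2 were not well above background, so their falls are bounds: Il2 was at least 919-fold lower in Th1 and at least 531-fold lower in Th2 cells, and Csf2 at least 233-fold and at least 99.2-fold, taking on each array the higher of the background limit and the probe's own signal as its level. Il3 was above background on both arrays and 1343-fold lower in Th1 and 592-fold lower in Th2 cells. Il21 was above background in Th1 cells, where it was 27-fold lower, and not in Th2 cells, where it was at least 10.8-fold lower. All 4 calls in Cy3 alone held without either reactivated DMSO array, but the sizes moved: without the Th1 array they were -8.85 for Il3, -8.83 for Il2 and -6.52 for Csf2, and without the Th2 array -10.75, -10.14 and -8.3.

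At 1 µM, the lower dose, the changes of the ratio were -6.02 ± 0.41 for Il3, -5.83 ± 0.36 for Il2 and -5.42 ± 0.42 for Csf2, with limma adjusted p of 6.23e-05, 4.77e-05 and 9.22e-05, where 53.9% of genes were called, and in Cy3 alone they were -8.01 ± 0.53, -8.39 ± 0.38 and -5.99 ± 0.48. Il21 changed by -1.84 ± 0.64 (adjusted p = 0.043), and in Cy3 alone, where 55% of genes were called, its change of -1.57 ± 0.6 did not pass (adjusted p = 0.0601). Expressed as what remained of the reactivated DMSO level in normalized Cy3, which was scaled between arrays and holds the offset of 50, Il2 kept 0.162% in Th1 and 0.549% in Th2 cells and Il3 0.156% and 0.967%. Csf2 kept 0.682% and 3.61%, whereas Il21 kept 27.6% and 41.2%. In net Cy3, without normalization or offset, the shares were lower, at 0.0618% and 0.219% for Il2, 0.0728% and 0.339% for Il3, 0.251% and 1.45% for Csf2 and 13.8% and 19.8% for Il21. For each gene the Th2 share was the higher on both scales. The change from 1 to 10 µM did not pass for any gene in the ratio: it was -2.9 ± 0.64 for Il21 (adjusted p = 0.0983), -2.11 ± 0.41 for Il3 (0.0734), -1.69 ± 0.42 for Csf2 (0.129) and -1.35 ± 0.36 for Il2 (0.152), where 0.861% of genes were called by limma. In Cy3 alone, where 0.861% were called too, it was -2.53 ± 0.6 for Il21, -1.79 ± 0.53 for Il3, -1.42 ± 0.48 for Csf2 and -1.1 ± 0.38 for Il2 (adjusted p of 0.13, 0.213, 0.275 and 0.287).

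**Figure D4:**
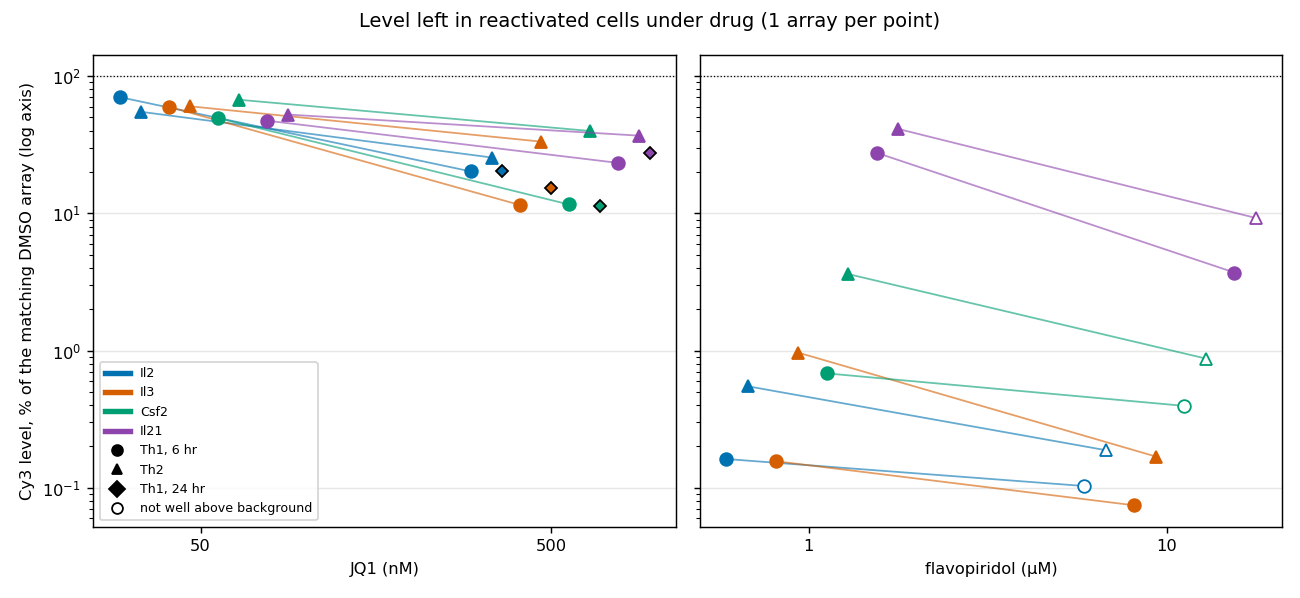
Normalized Cy3 of reactivated cells under JQ1 (left) and flavopiridol (right) as a percent of the DMSO array of the same cells, on a log axis, with circles for Th1 at 6 hr, triangles for Th2, diamonds for Th1 at 24 hr and open symbols for signals not well above background. With 1 µM flavopiridol Il2, Il3 and Csf2 keep between 0.156% and 3.61% and Il21 keeps 27.6% and 41.2%, while with JQ1 all points lie between 11.3% and 70.2%.

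The rise on reactivation was mostly absent under 10 µM flavopiridol, whereas some rise remained under 1 µM. With 10 µM the Cy3 difference between reactivated and unstimulated cells was -0.13 in Th1 and 0.09 in Th2 cells for Il2 and -0.06 and -0.01 for Csf2, all 4 between arrays not well above background, and for Il3 it was at least 0.36 and at least 0.56. Il21 was 0.48 higher in Th1 cells, and in Th2 cells both of its arrays were at background. With 1 µM most unstimulated arrays were at background, so the Cy3 rises are lower bounds except for Il3 and Il21 in Th1 cells. For Il3 the rise was 1.36 in Th1 and at least 2.88 in Th2 cells, for Csf2 at least 0.75 and 2, and for Il2 at least 0.66 and 1.57. For Il21 it was 3.28 in Th1 cells, above its rise of 2.07 with DMSO, and at least 2.5 in Th2 cells. The effect of 10 µM in reactivated minus that in unstimulated cells was -7.32 ± 0.58 for Il3, -6.6 ± 0.51 for Il2 and -6.47 ± 0.59 for Csf2 in the ratio, with limma adjusted p of 0.00169, 0.00169 and 0.00219. These 3 of 4 members were called, where 15.8% of genes were called and 6.91% were called lower (15.3% called in Cy3 alone). The Il2 call was lost with the scanner software's log ratio (-4.03, limma adjusted p = 0.077). Unstimulated Il2, Il3 and Csf2 were already dim with DMSO, so a fall of the size seen in reactivated cells could not have been measured there, and for these 3 genes the calls do not compare the drug's effect in the 2 states. For Il21 the difference was -2.81 ± 0.9 in the ratio (adjusted p = 0.0779) and -2.15 ± 0.84 in Cy3 alone (adjusted p = 0.135), neither of them called, and its unstimulated level was 8.99-fold lower in Th1 cells with 10 µM than with DMSO. In the ratio Il21 was called with the slide as a random block (-2.81, adjusted p = 0.00865), with a normexp offset of 16 (-3.27, 0.0302), with the scanner log ratio (-4.78, 0.0241) and, of the 12 fits that left out 1 array each, in that without the unstimulated Th1 DMSO array (-4.19, 0.00649), all by limma. Without the unstimulated Th2 DMSO array the difference was smallest, at -1.43 in the ratio and -0.95 in Cy3 alone, and was called in neither. The flavopiridol arrays were on other slides than their DMSO controls, so slide and drug cannot be told apart in single differences.

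With the spike-in shift the median of all genes at 10 µM was -1, against -0.16 in the ratio, and 3.64% of the called genes were higher, against 37.9%, so directions in the lists are relative to the ratio's centre. Beside 50.9% of all genes called and 31.6% called lower in the ratio, 11 of 22 tested activation factors were lower with 10 µM flavopiridol and 3 were higher, with Egr2 at -5.5 ± 0.63, Irf4 at -5.01 ± 0.37, Fosl1 at -3.73 ± 0.3 and Fosl2 at -3.7 ± 0.73 the largest. Of 13 STAT targets 7 fell and 2 rose, among them Myc at -4.38 ± 0.36 and the feedback inhibitors Socs1 at -2.96 ± 0.33 and Cish at -2.93 ± 0.44. Jak2 changed by -4.18 ± 0.26 and Stat5a by -3.55 ± 0.18, and 3 of 6 JAK and STAT genes fell in all. Of 7 tested receptor chains 0 fell and 1 rose, Il3ra by 1.88 ± 0.18, with a list median of 0.16. Of the 4 tested ligands Il13 (-3.75 ± 0.24) and Il4 (-3.63 ± 0.47) fell. Of 9 repressor or feedback genes of Il2, 3 fell and 1 rose, and of 4 tested neighbours 1 rose and 1 fell. B cell markers were also dimmer on these arrays, with a summed net Cy3 of Cd79a and Ms4a1 of 122 to 149 in reactivated Th2 cells with flavopiridol against 1352 with DMSO. The summed net Cy3 of the 4 myeloid genes was 2206 to 4428 in reactivated Th1 cells with flavopiridol against 10232 to 11078 with DMSO, and 2930 to 5528 against 10740 in Th2 cells. For the T cell genes it was 39718 to 40430 against 27170 to 35707 and 19892 to 23658 against 25015. For Cd8a and Cd8b1 it was 154 to 202 against 106 to 208 and 23.2 to 24.9 against 42.2. For the 3 NK genes it was 48.5 to 70 against 26.5 to 56 and 2 to 13 against 20. These sums are not normalized between arrays and can hide a gene that moved the other way. The part of these marker lists in the result was not tested.

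At 500 nM, JQ1 lowered all 4 genes in Cy3 alone and in the main fit of the ratio, where the Il2 call was unstable. In reactivated cells at 6 hr the log2 ratio changed by -2.06 ± 0.52 for Il21, -1.56 ± 0.24 for Csf2, -1.05 ± 0.14 for Il3 and -0.45 ± 0.16 for Il2, with limma adjusted p of 0.00941, 0.000617, 0.000269 and 0.0458. All 4 were called, where 45.5% of 12906 genes were called and 28.9% were called lower. In Cy3 alone the order was different: Il3 changed by -2.36 ± 0.31, Csf2 by -2.22 ± 0.32, Il2 by -2.14 ± 0.16 and Il21 by -1.77 ± 0.45, with limma adjusted p of 0.000408, 0.000689, 3.05e-05 and 0.0116, where 45.8% were called. For Il2 the 95% interval was -2.5 to -1.77 in Cy3 alone and -0.81 to -0.09 in the ratio, without overlap. The Il2 call in the ratio was lost under many alternatives. Among them were the smaller normexp offset (-0.12, limma adjusted p = 0.72), no filter on dim probes (-0.45, 0.0553) and the slide as a random block (-0.42, 0.0575). It was also lost with only the 500 nM and DMSO arrays (-0.45, limma adjusted p = 0.11) and without the context block (-0.45, 0.498). Leaving out any 1 reactivated array with DMSO or 500 nM lost it as well, with values from -0.61 to -0.28. The Il21 call was lost without the context block too (-2.06, limma adjusted p = 0.485). With the scanner software's own log ratio, without loess, Il2 and Csf2 were not lower but at 0.32 and 0.51. On that scale Il3, at -0.38, was not called (limma adjusted p = 0.113). In Cy3 alone the calls of Il2 (-2.39 to -1.88), Il3 (-3.12 to -1.59) and Csf2 (-2.99 to -1.44) held without each array in turn. Only the reactivated arrays with DMSO or 500 nM entered these estimates, so fits without any other array could not move them. For Il21 those other fits all gave -1.77. Its call was lost without the reactivated Th1 array with DMSO (-1.57) or with 500 nM (-1.48). It held without the reactivated Th2 array with DMSO (-1.97) or with 500 nM (-2.06). Each fit that could move the estimate left 1 array in a group.

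Single arrays showed the same in each context. In Cy3, 500 nM JQ1 left 20.2% of the DMSO level of Il2 in Th1 cells at 6 hr, 20.3% in Th1 cells at 24 hr and 25.5% in Th2 cells. For Il3 it left 11.5%, 15.3% and 33.3%, for Csf2 11.6%, 11.3% and 39.8%, and for Il21 23.3%, 27.4% and 36.8%, beside 27.6% in Th1 and 41.2% in Th2 cells with 1 µM flavopiridol. In net Cy3 the shares were 12.4%, 16% and 19.4% for Il2, 7.3%, 12.2% and 25.6% for Il3, 6.86%, 7.61% and 29.4% for Csf2 and 14.3%, 18.6% and 28.7% for Il21. On that scale 1 µM flavopiridol left less Il21 than 500 nM JQ1 in Th2 cells (19.8%) and about as much in Th1 cells (13.8%), so the order of the drugs for Il21 depended on the scale. For every gene the Th2 share was the highest of the 3 on both scales, but the Th2 arrays with JQ1 were on another slide than their DMSO control, whose time is unclear, so slide and cell type cannot be told apart there. Th1 cells with JQ1 at 6 hr, by contrast, shared a slide with their control, and within it the log2 ratio differed by -0.24 for Il2, -1.18 for Il3, -2.16 for Csf2 and -2.38 for Il21. At 24 hr, also within 1 slide, it differed by -0.04 for Il2 and -0.27 for Il3, whereas Cy3 differed by -2.3 and -2.71. The first ratio difference was within the tolerance of 0.19 and the second beyond it. That tolerance holds no spread between samples, so it cannot show that the second is a difference.

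At 50 nM no member was called in either scale, where 0.302% of genes were called in the ratio and 0.294% in Cy3 alone. In the ratio the estimates were -1.27 ± 0.52 for Il21, -0.44 ± 0.24 for Csf2, -0.4 ± 0.14 for Il3 and -0.12 ± 0.16 for Il2. In Cy3 they were -1.01 ± 0.45 for Il21, -0.8 ± 0.32 for Csf2, -0.74 ± 0.31 for Il3 and -0.69 ± 0.16 for Il2, with adjusted p of 0.356, 0.315, 0.328 and 0.123 by limma. All these estimates were below 0, and in both cell types every reactivated array with 50 nM had a lower Cy3 than its control. The difference between 500 and 50 nM was called in Cy3 for Il3 at -1.62 ± 0.31, Il2 at -1.45 ± 0.16 and Csf2 at -1.42 ± 0.32, where 29.5% of genes were called, and for Il21 it was -0.77 ± 0.45 (adjusted p = 0.244). In the ratio, where 31.1% were called, Csf2 (-1.12 ± 0.24) and Il3 (-0.66 ± 0.14) were called, and Il21 (-0.79 ± 0.52, adjusted p = 0.285) and Il2 (-0.33 ± 0.16, adjusted p = 0.158) were not.

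The JQ1 effect in reactivated minus that in unstimulated cells differed between the scales. In the ratio 0 of 4 members were called, where 10.1% of genes were called, and the unadjusted limma p was 0.0113 for Il3 and 0.0144 for Csf2. In Cy3 alone the 500 nM effect in reactivated minus that in unstimulated cells was -1.55 ± 0.23 for Il2 (adjusted p = 0.00616) and -1.99 ± 0.44 for Il3 (adjusted p = 0.0275), where 8.98% of genes were called, and for Csf2 it was -1.72 ± 0.46 (adjusted p = 0.0503). Leaving out each array in turn, the Il2 call held in 12 of 12 fits (-1.81 to -1.3) and the Il3 call in 5 of 12 (-2.76 to -1.23). Fits without an array of the lower JQ1 dose could not move these differences, which stayed at -1.55 for Il2 and -1.99 for Il3. These differences also have a floor. Unstimulated log2 Cy3 with DMSO was 6.44 in Th1 and 7.11 in Th2 cells for Il2 and 6.76 and 7.24 for Il3. The background limit of the unstimulated 500 nM arrays was 6.225 and 6.173. Csf2 was not well above background on either of those arrays. A fall as large as that in reactivated cells could therefore not have been measured in unstimulated cells, and for these 3 genes the calls do not compare the drug's effect in the 2 states. For Il21 the estimate in Cy3 was 0.16 ± 0.64, with an interval of -1.29 to 1.62. Unstimulated Th1 cells at 6 hr had 9.04-fold less Il21 with 500 nM JQ1 than with DMSO, and reactivated ones had 4.29-fold less.

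The lists around the members are given relative to the ratio's own centre: with arrays shifted to the spike-in probes the median of all genes at 500 nM was -1.21, against -0.08 in the ratio, and 0.309% of the called genes were higher, against 36.4%, in a fit where limma shared 1 variance over all genes. Of all genes 45.5% were called and 28.9% were called lower in the ratio. At 500 nM, 4 of 8 receptor chains fell and 0 rose: Il21r changed by -0.97 ± 0.17, Csf2ra by -0.74 ± 0.11, Il3ra by -0.64 ± 0.19 and Il2rg by -0.53 ± 0.11. Of the 4 tested other ligands all fell, with Il13 at -1.98 ± 0.22, Il4 at -1.49 ± 0.35, Il9 at -0.83 ± 0.29 and Il5 at -0.51 ± 0.11. Activation factors moved both ways, with 8 of 23 higher and 4 lower. Batf at -1.8 ± 0.17 and Fosl1 at -1.78 ± 0.14 fell, and Egr1 at 1.22 ± 0.18 and Jund at 1.21 ± 0.09 rose. STAT targets were also split, 5 of 13 higher and 5 lower, with the cytokines Lif at -1.64 ± 0.14 and Osm at -1.16 ± 0.11 among those that fell. Tob1, an inhibitor of T cell division on the list of Il2 repressors, rose by 2.77 ± 0.11. Of 6 JAK and STAT genes 1 rose and 3 fell, with Stat5b at -0.88 ± 0.11 the lowest, and of 4 tested neighbours Spata5 alone fell (-0.42 ± 0.1). Of the 9 repressor or feedback genes 1 rose and 2 fell. Among cell markers 2 of 3 tested T cell genes and 1 of 2 B cell genes were lower in the ratio. The summed net Cy3 of the T cell genes was 10535 to 24134 on the 3 reactivated Th1 arrays with JQ1, both doses and times together, against 27170 to 35707 with DMSO, and 13642 to 19640 against 25015 in Th2 cells. For the 2 B cell genes it was 49.5 to 206 against 236 to 264 in Th1 and 612 to 1130 against 1352 in Th2 cells. For Cd8a and Cd8b1 it was 15.2 to 73.8 against 106 to 208 and 13.8 to 27.9 against 42.2, and for the 4 myeloid genes 4574 to 9644 against 10232 to 11078 and 8782 to 11314 against 10740. Such sums are not normalized between arrays, so they do not give the direction of a gene in the ratio. The part of these lists in the changes of the members was not tested.

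Il21 was higher in Th1 than in Th2 cells. Over 5 treatments of reactivated cells, with treatment as a block, Th1 cells had a log2 ratio 2.28 ± 0.17 higher than Th2 cells (limma adjusted p = 0.00124), and in Cy3 alone it was 2.19 ± 0.19 higher (adjusted p = 0.00234). It was the 1 member of 4 called, where 8.77% of 12468 genes were called and 4.85% were called higher in Th1 (9.45% called in Cy3 alone). Th1 exceeded Th2 in 5 of 5 treatments in Cy3, by 2.73 under DMSO, by 2.59 under JQ1 at 50 nM and 2.08 at 500 nM, and by 2.16 under flavopiridol at 1 µM and 1.41 at 10 µM, the last against a Th2 array at background. The DMSO arrays shared a slide, whereas in the other 4 treatments Th1 and Th2 arrays were on different slides, so slide and cell type cannot be told apart in those. In unstimulated cells with DMSO the Cy3 difference was 3.72. For Il2, Il3 and Csf2 the estimated differences in the ratio were -0.07, -0.16 and -0.09, with 95% intervals of -0.68 to 0.54, -0.85 to 0.52 and -0.8 to 0.61. With 10 µM flavopiridol both arrays were at background for Il2 and Csf2, so that pair could show no difference for them. The estimates therefore do not show that the lineages are alike. In Cy3 these 3 genes differed between Th1 and Th2 cells by -1.11, -1.44 and -1.16 with 1 µM flavopiridol and by 0.64, 1.19 and 1.25 with DMSO. With 500 nM JQ1 they differed by 0.31, -0.35 and -0.53, so against DMSO the sign was opposite for all 3 with 1 µM flavopiridol and for Il3 and Csf2 with 500 nM JQ1. Without the flavopiridol pairs Il2 was 0.36 higher in Th1 cells in the ratio and was called by limma (adjusted p = 0.0414).

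Markers of other cells also differed between the lineages. The summed net Cy3 of the 2 B cell genes was 236 to 264 in reactivated Th1 and 1352 in reactivated Th2 cells with DMSO, and that of Cd8a and Cd8b1 was 106 to 208 and 42.2. For the 3 NK genes it was 26.5 to 56 and 20. Klra8, of NK cells, had a median log2 ratio of 0.67 over the Th1 and -0.08 over the Th2 arrays. Their part in the Il21 difference was not tested. Of the lists, receptor chains had 1 of 7 lower in Th1 (Csf2ra, -0.51 ± 0.11), JAK and STAT genes 1 higher (Stat3, 0.45 ± 0.11) and 1 lower (Jak2, -0.92 ± 0.12), and STAT targets 2 of 13 lower. Among the other ligands Il4, the Th2 cytokine, was lower (-4.38 ± 0.46). Of 23 activation factors 1 was higher and 2 were lower, and of 4 tested neighbours Pdlim4 was lower (-2.06 ± 0.31), and of 9 repressor or feedback genes 0 were called.

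Tests of whether a drug acted differently in Th1 and Th2 cells called no member. At 10 µM flavopiridol the SE of the difference was 1.45 for Il21 and 2.74 to 3.12 for the other 3 genes, in a model that took unstimulated and reactivated cells together. The fit called 2 of 12425 genes, or 0.0161%. For 500 nM JQ1 it called 0 of 12906, or 0%, and among the members the unadjusted limma p was 0.00676 for Il21 (-1.83 ± 0.5, adjusted p = 0.458) and 0.00729 for Il2 (0.56 ± 0.16, adjusted p = 0.462).

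Longer treatment was compared in Th1 cells alone, over DMSO and 500 nM JQ1 in both states. In the ratio no member was called, where 5.23% of 12532 genes were called, and the estimates for 24 hr against 6 hr were 0.49 ± 0.24 for Il2, 0.47 ± 0.17 for Csf2, 0.33 ± 0.18 for Il3 and 0.23 ± 0.49 for Il21. In Cy3 alone, where 10.2% were called, Il2 was higher at 24 hr by 1.27 ± 0.27 (limma adjusted p = 0.034) and Il3 by 0.92 ± 0.18 (adjusted p = 0.031), and each of these calls held in 2 of 8 fits that left out 1 array. In reactivated cells with DMSO, Cy3 at 24 hr exceeded that at 6 hr 3.65-fold for Il2, 2.06-fold for Il3, 2.65-fold for Csf2 and 3.24-fold for Il21. Unstimulated cells with DMSO went the other way for Il21, which was 2.3-fold lower at 24 hr. The arrays of the 2 times were on different slides, so slide and time cannot be told apart. Of the lists, 1 STAT target (Bcl2, 0.98 ± 0.17) and 1 repressor of Il2 (Ikzf1, 1.05 ± 0.14) were higher at 24 hr in the ratio, and no receptor chain, JAK or STAT gene, other ligand, activation factor or neighbour was called.

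**Figure D5:**
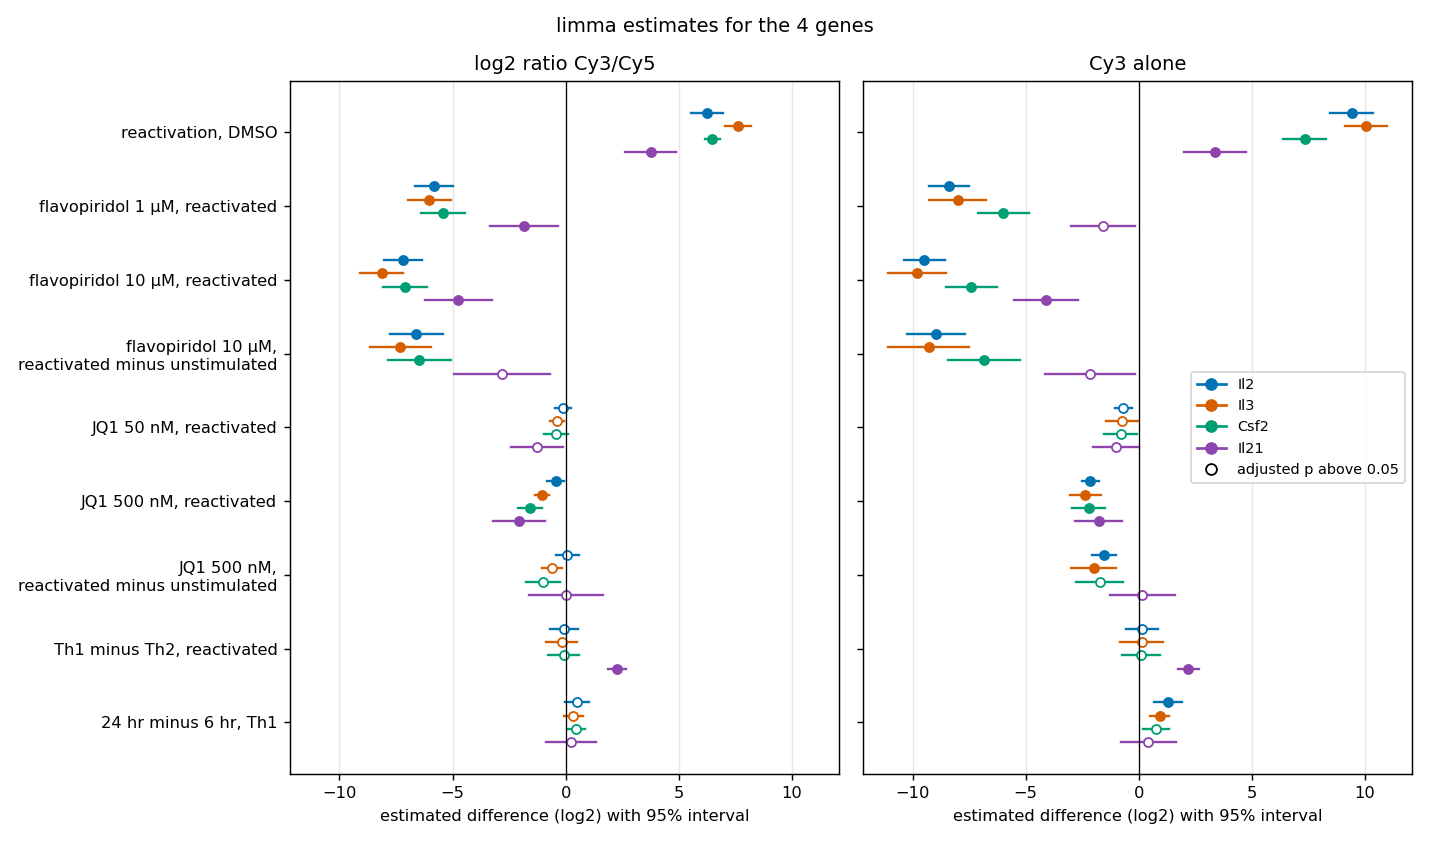
limma estimates with 95% intervals for the 4 genes in 9 contrasts, in log2, on the ratio (left) and on Cy3 alone (right), with filled points for an adjusted p under 0.05. Intervals of Il2 for 500 nM JQ1 lie apart on the 2 scales, and Il21 alone stands away from 0 in the contrast of Th1 with Th2 cells.

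Il2, Il3 and Csf2 were closely correlated over the 24 arrays. Among 12365 genes above background on at least 8 arrays, the gene whose log2 ratio was most like that of Il2 was Il3 (Pearson r = 0.994), followed by Inhba, which encodes a chain of activin (0.989), and Csf2 (0.987). In Cy3 alone Il2 was followed most closely by Il3 (0.996), Csf2 (0.992) and Tnfsf11, which encodes RANKL (0.987). For Il3 the closest were Il2 (0.994), Csf2 (0.993) and Inhba (0.986) in the ratio and Il2 (0.996), Csf2 (0.995) and Idi2 (0.986) in Cy3. For Csf2 they were Il3 (0.993), 1810009J06Rik (0.987) and Il2 (0.987) in the ratio and Il3 (0.995), Il2 (0.992) and Idi2 (0.986) in Cy3. The closest to Il21 were other genes, Acod1 (0.927), Btg3 (0.912) and Hpn (0.905) in the ratio and Acod1 (0.928), Mpzl2 (0.909) and Chst11 (0.908) in Cy3. These coefficients describe 24 arrays that share their reference. For Il2, Il3 and Csf2 the gap between the 8 reactivated arrays without flavopiridol and the other arrays weighs heavily in them. Within those 8 arrays the genes differed, with ranges of the log2 ratio of 0.79 for Il2, 1.18 for Il3 and 2.41 for Csf2.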

How the data were processed

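Per the labels, Trisure total RNA of 1 T helper sample (Cy3) and naive T cells (Cy5) was hybridized per array. The deposited scanner files hold median spot and background intensity for both channels, from Feature Extraction 10.7.1.1 per the file headers (grid mm9), and its log10 ratio of Cy5 over Cy3. A value table from the authors, on a log2 scale, was deposited as well, with Il2 and Il21 but without Il3 and Csf2. Its scale was settled only against the scanner values: over 24 arrays it correlated with normalized Cy3 minus the mean Cy5 at 0.996 to 0.9988 and with the ratio of the same array at 0.9838 to 0.9961, and its centring is not stated. It was used as an alternative.

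Background was corrected with normexp (offset 50) and arrays were normalized by loess, single channels then by Aquantile, in limma 3.58.1 (R 4.3.3). Control and outlier-flagged spots were left out (234 to 331 flagged per array). Symbols came from accessions through RefSeq. The brightest probe stood for a gene. A gene was tested, with lmFit and eBayes, if 3 or more arrays of the fit had Cy3 well above background, and it was called at an adjusted p under 0.05. All 4 members passed this filter in every fit, Il2 and Csf2 mainly through reactivated arrays. The procedure was tested on simulated data. Blocks were the DMSO pair, the cell context, the treatment or the condition. The members, lists and tests were chosen with earlier results of these data known. A few listed genes are not reported here and were left out of the list counts and sums. Named were the 4 members, up to 4 called genes of a list with the largest change, and the 3 genes most alike in pattern. With 1 array per condition, precision is set by how many arrays a fit holds.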

Additional observations from a re-analysis of the deposited data

Results flagged for a closer look

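For 3 of the 4 genes the test of the 10 µM flavopiridol effect in reactivated against unstimulated cells passed, but a floor on the unstimulated arrays fixed its direction. The effect in reactivated minus that in unstimulated cells was -6.6 (log2 ratio) for Il2, -7.32 for Il3 and -6.47 for Csf2. On Cy3 alone it was -8.97 for Il2, -9.29 for Il3 and -6.84 for Csf2. The Il2 call was lost with the scanner software's log ratio (-4.03, limma adjusted p = 0.077). Unstimulated log2 Cy3 with DMSO was 6.44 and 7.11 for Il2, 6.76 and 7.24 for Il3 and 6.83 and 6.47 for Csf2 in Th1 and Th2 cells, and the background limit of the unstimulated 10 µM arrays was 6.135 and 6.053. A fall of the size seen in reactivated cells could not have been measured there, so these calls do not compare the drug's effect in the 2 states. No group had enough arrays for a check of single outlying samples.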

How the results depend on the processing

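The calls of Il2, Il3 and Csf2 for reactivation and for 10 µM flavopiridol in reactivated cells held under every alternative that could be run, leaving out each array included. The authors' value table, which lacks Il3 and Csf2, called 2 members for reactivation, 2 for flavopiridol, 2 for JQ1, 1 for flavopiridol by reactivation, 1 for JQ1 by reactivation and 1 for time. For 500 nM JQ1 in reactivated cells the scanner software's log ratio called 1 member and put Il2 at 0.32 and Csf2 at 0.51, 50 nM called 0, a fit without the context block called 2, and leaving out 1 array called 2 to 4. For JQ1 by reactivation, Cy3 alone called 2 (Il2 -1.55), median centring 2 (Il2 -0.52, Il21 -0.35), the spike-in shift 4 (Il2 -1.11, Il21 -1.17) and the scanner log ratio 2 (Il2 2.37 with limma adjusted p = 0.0352, Il3 0.46, Csf2 2.59); the authors' table gave -1.56 for Il2, 50 nM gave -0.58 for Il21, and leaving out 1 array called 0 to 2, with Il2 from -0.22 to 0.38 and Il21 from -1.27 to 1.31 (Cy3 alone -0.92 to 1.25). Over all genes these settings called 10.1% in the main scaling, 8.98% in Cy3 alone, 7.81% with median centring, 82.1% with the spike-in shift and 3.11% with the scanner log ratio. The spike-in shift moved the median of all genes to -1.21 for 500 nM JQ1 in reactivated cells and to -1.2 for JQ1 by reactivation, and the median for 10 µM flavopiridol to -1; with it called genes were 0.309% higher for JQ1 against 36.4% in the main scaling, and 3.64% against 37.9% for flavopiridol, and 64.5% against 43% for reactivation. Median centring gave 8.78%, 4.91% and 37%, with medians of -0.36, -0.89 and -0.12. For JQ1 by reactivation the share higher was 44.6%, against 21.8% with median centring and 0.0378% with the spike-in shift, and for Th1 against Th2 it was 55.3%, against 71.4% with the spike-in shift. All 4 members were called lower for both drugs under these 2 scalings, but in the JQ1 fits limma then gave every gene 1 shared variance (infinite prior degrees of freedom), so those calls, and the 2 and 4 above, say nothing about the spread of the single gene.

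Flavopiridol by reactivation at 1 µM put Il21 at 0.15. For flavopiridol by cell type the sign of uncalled values turned in Cy3 alone (Il2 -0.1, Il3 -0.25), with the spike-in shift (Csf2 0.35), the scanner log ratio (Il21 0.09), the authors' table (Il2 -0.11) and 1 µM (Il2 -0.29, Il3 -0.48), and leaving out 1 array gave -3.05 to 3.72 for Il2, -3.46 to 3.78 for Il3 and -3.56 to 2.6 for Csf2 (Cy3 alone -4.77 to 4.56, -5.11 to 4.61 and -4.11 to 2.77). For JQ1 by cell type Il3 was 0.42 with the scanner log ratio, 0.07 with an offset of 16, 0.31 at 50 nM and -0.39 to 0.33 without 1 array; in Cy3 alone the ranges were -1.91 to 0.63 for Il3, -0.91 to 0.94 for Il2 and -2.04 to 0.04 for Csf2. For Th1 against Th2, Cy3 alone gave 0.12 for Il2, 0.12 for Il3 and 0.09 for Csf2, the spike-in shift gave 0.02 and the values of the authors gave 0.14 for Il2, and the slide as a random block 0.11 for Csf2. Without the flavopiridol pairs 2 members were called, with 0.36 for Il2, 0.28 for Il3 and 0.27 for Csf2. Without 1 array the values were -0.22 to 0.23 for Il2, -0.35 to 0.18 for Il3 and -0.3 to 0.22 for Csf2 (Cy3 alone -0.1 to 0.43, -0.15 to 0.5 and -0.2 to 0.41). For 24 hr against 6 hr Cy3 alone called 2, and Il21 was -0.28 with the scanner log ratio, -0.02 with an offset of 16 and -0.33 to 0.8 without 1 array (Cy3 alone -0.09 to 0.96). The causes were not tested. Leaving out each array on Cy3 alone was chosen after seeing the data. The labels carry no replicate numbers, so no fit had a replicate number as a block; the pairs of the reactivation test are the unstimulated and reactivated arrays of the same cells, treatment and time.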
